A study of Mus musculus with 2 samples.

Results

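Glycolysis splits glucose into pyruvate, and lactate dehydrogenase and the monocarboxylate transporters turn pyruvate into lactate and carry it out of the cell. The pentose phosphate pathway branches off after the first phosphorylation and supplies NADPH and ribose, and pyruvate dehydrogenase passes pyruvate to the mitochondria instead. Many genes of uptake, glycolysis and lactate export are known targets of hypoxia-inducible factor 1 (HIF-1), and the pentose phosphate enzymes are mostly not. A list of 39 genes of these steps was followed in 2 xenograft tumors. The list was matched by symbol. It held 3 glucose transporters, 12 genes of upper glycolysis, 6 of lower glycolysis, 5 of lactate formation and export, 6 of pyruvate entry, 6 of the pentose phosphate pathway, and FBP1 of gluconeogenesis.

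Both tumors were gastroenteropancreatic neuroendocrine tumors of human origin propagated in athymic nude mice of the Foxn1nu strain. The metastatic tumor was labelled as lying in the peritoneal cavity and the primary tumor as lying in the flank, so tumor origin and graft site cannot be told apart. Each group held 1 library of total RNA, taken from cells pelleted after dissociation with a kit for mouse tumors. There was thus no replicate check and no test, and every difference is a difference between these 2 libraries. The sample titles carry a common code, but no label states that 1 patient gave both tumors. Values are FPKM, by definition fragment numbers divided by transcript length and a library total. Levels of different genes may therefore be set side by side within a library. Whether each column was divided by its own total is uncertain, as set out with the processing below. The FPKM summed to 885319 in the metastatic and 784987 in the primary library, and read depth is unknown. In bulk tumor RNA, fewer cells of a type and less RNA per cell cannot be told apart. Log2 ratios are metastatic over primary after adding 1 FPKM to each value, which understates differences of low genes.

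Of the 39 genes, 30 had a value of their own of at least 1 FPKM in at least 1 library and are called expressed below. Another 3, SLC2A2, PFKFB2 and FBP1, stayed under 1 FPKM throughout. LDHB, PGK1 and PFKFB4 stood only in rows that merge them with a neighbouring gene, and LDHA, SLC16A1 and PKLR were listed at 0 in both libraries. GAPDH, ALDOA, ENO1 and PKM were the most abundant expressed members in both libraries, followed by BSG and TPI1 in the metastatic and by TPI1 and BSG in the primary tumor.

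RNA of the glucose transporters SLC2A1 and SLC2A3 and of several genes of upper glycolysis was lower in the metastatic tumor. RNA of the pentose phosphate enzymes was near or above its primary level. Glucose uptake and enzyme activity were not measured. Of the 30 expressed members, 10 lay 2-fold or more below their primary level and 0 lay 2-fold or more above it. The same thresholds took 9.35% of all 13811 expressed genes and loci on the lower side and 9.22% on the higher side. The median log2 ratio was -0.17 over the 30 members and 0.03 over all expressed genes and loci. The 10 lower members were SLC2A1, SLC2A3, HK2, GPI, PFKP, PFKFB3, ALDOC, SLC16A3, PDK1 and PDK3. At a 4-fold threshold 5 members remained lower, SLC2A1, SLC2A3, PFKP, ALDOC and SLC16A3, against 1.88% of all expressed genes and loci. With each library scaled to the same sum, 12 members were past 2-fold on the lower side and 0 on the higher side, with PFKL and TPI1 added. Scaled in this way, 12.7% of all expressed genes and loci passed on the lower side and 7.24% on the higher side, with a median of -0.12. Higher ones then made up 36.4% of all genes and loci past 2-fold, against 49.6% without scaling. Over 4 scalings (none, to the same sum, by the median ratio and by the 75th percentile), 18 of the 30 members stayed below 0 and 7 stayed above 0. The 5 whose sign changed were PFKM, PGAM1, PDK2, DLAT and PGLS.

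**Figure D1:**
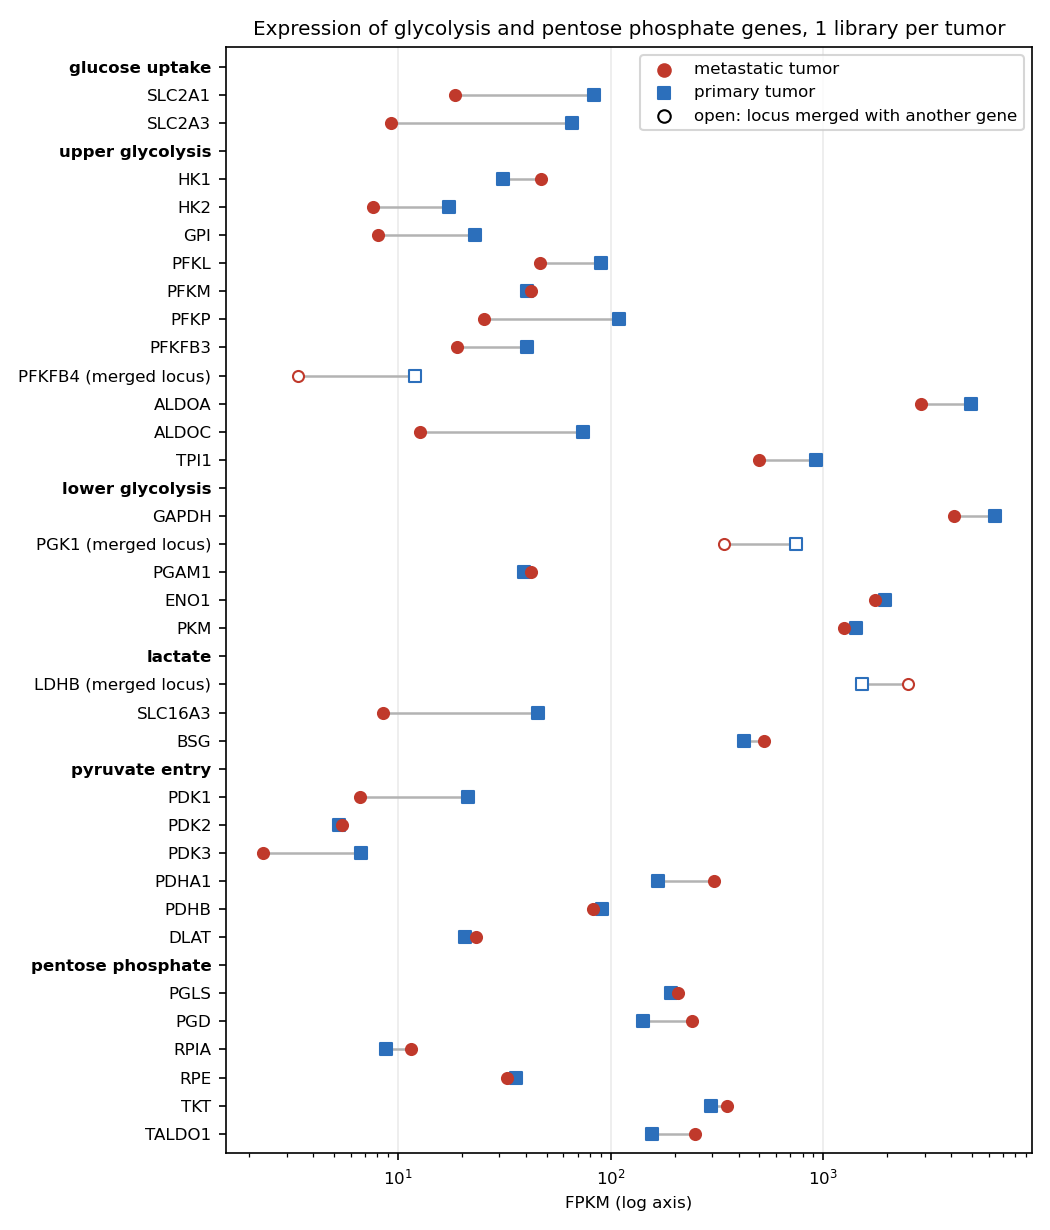
FPKM on a log axis of each expressed member, by step, in the metastatic (circles) and the primary tumor (squares), 1 library each; open symbols are loci merged with another gene. The widest gaps are those of SLC2A3, ALDOC, SLC16A3, SLC2A1 and PFKP, with the metastatic value on the left, while the pentose phosphate pairs lie close together.

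Glucose enters cells through the facilitative transporters of the SLC2A family. SLC2A1, the GLUT1 transporter of most cell types, stood at 18.5 FPKM in the metastatic and 83.6 FPKM in the primary tumor, a log2 ratio of -2.12. SLC2A3, the high-affinity GLUT3 transporter best known from neurons, stood at 9.31 FPKM in the metastatic and 66.2 FPKM in the primary tumor, a log2 ratio of -2.70. This was the lowest ratio of all 30 members. Ranks do not depend on how a library is scaled. By level among the 13811 expressed genes and loci, SLC2A3 ranked 7108 in the metastatic and 1782 in the primary library, and SLC2A1 ranked 5115 in the metastatic and 1396 in the primary library. Their summed level was 27.8 FPKM in the metastatic and 149.8 FPKM in the primary tumor. Of the sum of SLC2A1, SLC2A2 and SLC2A3, SLC2A1 made up 66.2% in the metastatic and 55.8% in the primary tumor. With the 5 further SLC2A genes above 0 that were looked up, its share was 30.3% in the metastatic and 46.9% in the primary tumor, since SLC2A8 and SLC2A10 together were then about as abundant as the list's own members in the metastatic tumor. SLC2A2, the GLUT2 transporter of liver and pancreatic beta cells, was near 0, at 0.0949 FPKM in the metastatic and 0.0340 FPKM in the primary tumor.

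The hexokinases trap glucose by phosphorylating it. HK1, the form found in most tissues, stood at 47.2 FPKM in the metastatic and 31.1 FPKM in the primary tumor, a log2 ratio of 0.59. HK2, the inducible form, went the other way, at 7.62 FPKM in the metastatic and 17.4 FPKM in the primary tumor, a log2 ratio of -1.10. The sum of HK1 and HK2 was similar in both, at 54.8 FPKM in the metastatic and 48.5 FPKM in the primary tumor. The composition of that sum differed, since HK2 held 13.9% of it in the metastatic and 35.9% in the primary tumor. HKDC1, a further hexokinase gene that is not on the list of 39, stood at 29.4 FPKM in the metastatic and 9.998 FPKM in the primary tumor. With HKDC1 and HK3 counted, the hexokinase sum was no longer similar, at 85.4 FPKM in the metastatic and 59.5 FPKM in the primary tumor. HK2 held 8.92% of this wider sum in the metastatic and 29.3% in the primary tumor, while HKDC1 held 34.5% in the metastatic and 16.8% in the primary tumor. The share of HK1 was then close, at 55.2% in the metastatic and 52.3% in the primary tumor. HKDC1 was thus second to HK1 in the metastatic tumor, and HK2 was second in the primary tumor.

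GPI, which converts glucose 6-phosphate to fructose 6-phosphate, has an uncertain value because the table splits it. Its own row stood at 8.04 FPKM in the metastatic and 23.2 FPKM in the primary tumor, a log2 ratio of -1.42. A far higher row that merges GPI with PDCD2L stood at 244 FPKM in the metastatic and 323 FPKM in the primary tumor, a log2 ratio of -0.40. With both rows added the log2 ratio was -0.46, within 2-fold. Without GPI, 9 of 29 members were at least 2-fold lower.

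Phosphofructokinase-1, the committed step of glycolysis, is a tetramer of liver, muscle and platelet subunits. PFKP, the platelet subunit, stood at 25.4 FPKM in the metastatic and 109 FPKM in the primary tumor, a log2 ratio of -2.06. The liver subunit gene PFKL stood at 46.8 FPKM in the metastatic and 90.2 FPKM in the primary tumor, a log2 ratio of -0.93 that passed 2-fold after scaling to the same sum (-1.11) or by the 75th percentile (-1.03). Levels of the muscle subunit gene PFKM were close, at 42.3 FPKM in the metastatic and 40.5 FPKM in the primary tumor. The 3 subunit genes together came to 114 FPKM in the metastatic and 239.7 FPKM in the primary tumor. PFKP was the most abundant of them in the primary tumor with 45.5% of the sum, and held 22.2% in the metastatic tumor, where PFKL with 40.8% and PFKM with 37.0% stood above it.

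The PFKFB enzymes make and break fructose 2,6-bisphosphate, which activates phosphofructokinase-1. PFKFB3, the form with the highest ratio of kinase to phosphatase activity, stood at 19.0 FPKM in the metastatic and 40.5 FPKM in the primary tumor, a log2 ratio of -1.05, just past 2-fold. PFKFB2 was low, at 0.515 FPKM in the metastatic and 0.914 FPKM in the primary tumor. PFKFB4 is known only from a locus merged with UCN2, at 3.38 FPKM in the metastatic and 12.0 FPKM in the primary tumor, a log2 ratio of -1.57 for the locus.

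Aldolase splits fructose bisphosphate into 2 trioses. ALDOA, the main form in both tumors and merged here only with a clone name, stood at 2880 FPKM in the metastatic and 4973 FPKM in the primary tumor, a log2 ratio of -0.79. ALDOC, the brain-type aldolase, stood at 12.7 FPKM in the metastatic and 73.9 FPKM in the primary tumor, a log2 ratio of -2.45. Because ALDOA was so abundant, ALDOC was 0.438% of the ALDOA and ALDOC sum in the metastatic and 1.46% in the primary tumor. TPI1, which interconverts the trioses, stood at 499.8 FPKM in the metastatic and 928 FPKM in the primary tumor, a log2 ratio of -0.89, or -1.06 after scaling to the same sum. Over the 10 expressed members of upper glycolysis the median log2 ratio was -0.99, with 5 at least 2-fold lower, GPI among them by its own row. Of all expressed genes and loci, 9.35% lay that far lower. Without GPI the median of upper glycolysis was -0.93.

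**Figure D2:**
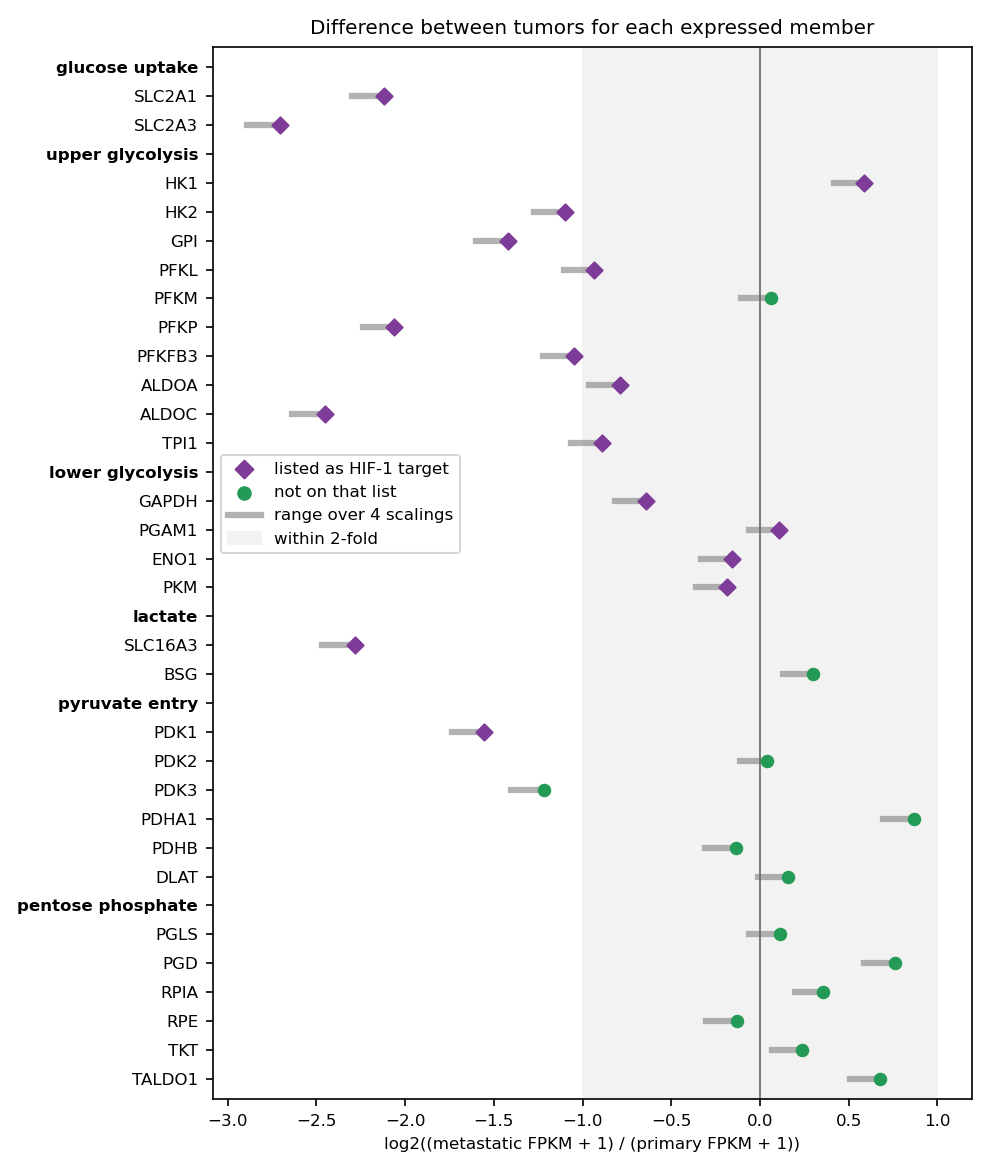
Log2 ratio, metastatic over primary, of each of the 30 expressed members by step; the grey band is within 2-fold, grey lines span the 4 scalings, and diamonds mark members listed as HIF-1 targets. Members past 2-fold all lie on the lower side, and the symbols on the upper side stay inside the band.

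The 4 expressed genes of lower glycolysis, which carries the trioses to pyruvate with a gain of ATP, were within 2-fold. GAPDH, the step that makes NADH, stood at 4131 FPKM in the metastatic and 6457 FPKM in the primary tumor, a log2 ratio of -0.64. Its many near-identical pseudogenes can share reads with it; their 62 rows summed to 11.6 FPKM in the metastatic and 19.0 FPKM in the primary tumor. ENO1, the common enolase, stood at 1749 FPKM in the metastatic and 1953 FPKM in the primary tumor, a log2 ratio of -0.16. PKM, the pyruvate kinase of most tissues and tumors, stood at 1253 FPKM in the metastatic and 1424 FPKM in the primary tumor, a log2 ratio of -0.18. The values are per gene, so the spliced forms of PKM were not told apart. PGAM1, a phosphoglycerate mutase, was nearly level, at 42.2 FPKM in the metastatic and 39.1 FPKM in the primary tumor. The median over these 4 genes was -0.17. PGK1, the first ATP-forming step, stood only in a locus merged with ATP7A. That locus was at 340 FPKM in the metastatic and 743 FPKM in the primary tumor, a log2 ratio of -1.12 that cannot be assigned to either gene. ENO2, the neuronal enolase outside the list, was likewise merged, with LRRC23, at 23.8 FPKM in the metastatic and 81.6 FPKM in the primary tumor.

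The members with the widest log2 differences were of moderate level, while the most abundant ones carried most of the difference in summed FPKM. GAPDH ranked 20 in the metastatic and 4 in the primary library, and ALDOA ranked 40 in the metastatic and 9 in the primary library. ENO1 ranked 71 in the metastatic and 59 in the primary library. In all, 23 of 30 expressed members held a lower percentile in the metastatic than in the primary library, as did 49.0% of all expressed genes and loci. Of the members, 11 lay above the 90th percentile in the metastatic library against 14 in the primary library. The 30 members together made up 1.45% of all FPKM in the metastatic and 2.29% in the primary library. GAPDH, ALDOA, ENO1, PKM and TPI1 accounted for 1.19% of all FPKM in the metastatic and 2.004% in the primary library. The other 25 expressed members held 0.264% in the metastatic and 0.284% in the primary library. These sums leave out the merged loci of LDHB, PGK1, PFKFB4 and GPI. Of these, the LDHB locus was higher in the metastatic tumor and the others were higher in the primary tumor.

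Lactate formation could be read only in part. LDHA, the lactate dehydrogenase subunit of muscle and most tumors, was listed at 0 in both libraries, on 2 rows. Its 6 pseudogene rows all held values above 0 in at least 1 library and summed to 4.74 FPKM in the metastatic and 5.29 FPKM in the primary tumor. SLC16A1, which encodes the MCT1 transporter, and PKLR, the liver and red cell pyruvate kinase, were also listed at 0 in both libraries, each on 2 rows. These 3 were the only members whose symbol stood on more than 1 row of its own. Across the table, leaving out clones, short RNAs and antisense RNAs, 82.5% of 1931 symbols on 2 or more rows were listed at 0 in both libraries, against 34.4% of 25948 symbols on 1 row. The ribosomal protein genes RPL7A and RPS25, which every cell uses, were among those on 2 rows at 0. A 0 for LDHA, SLC16A1 or PKLR is therefore no evidence that the gene was silent. SLC16A1-AS1, an antisense RNA of the SLC16A1 locus, stood at 4.71 FPKM in the metastatic and 2.33 FPKM in the primary tumor.

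LDHB, the heart-type subunit, stood only in a locus merged with GYS2 and a clone name. This locus was at 2518 FPKM in the metastatic and 1529 FPKM in the primary tumor, a log2 ratio of 0.72, the opposite side to most glycolysis genes. SLC16A3, the MCT4 lactate exporter of glycolytic cells, stood at 8.54 FPKM in the metastatic and 45.4 FPKM in the primary tumor, a log2 ratio of -2.28. BSG, the chaperone that brings both transporters to the membrane, did not follow it. It stood at 525 FPKM in the metastatic and 426 FPKM in the primary tumor, a log2 ratio of 0.30. The level of SLC16A3 per level of BSG was 0.0163 in the metastatic and 0.107 in the primary tumor.

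Pyruvate entry into mitochondria is controlled by kinases that switch pyruvate dehydrogenase off. PDK1, a kinase known as a HIF-1 target, stood at 6.64 FPKM in the metastatic and 21.5 FPKM in the primary tumor, a log2 ratio of -1.56. PDK3 stood at 2.31 FPKM in the metastatic and 6.70 FPKM in the primary tumor, a log2 ratio of -1.22. PDK2 was level, at 5.45 FPKM in the metastatic and 5.29 FPKM in the primary tumor. PDK2 therefore formed 37.9% of the sum of the 3 kinases in the metastatic and 15.8% in the primary tumor. PDK4, a fasting-induced kinase outside the list, was above each of them in both libraries, at 22.0 FPKM in the metastatic and 28.01 FPKM in the primary tumor. With PDK4 counted, PDK1 held 18.3% of the kinase sum in the metastatic and 34.9% in the primary tumor, and PDK2 held 15.0% in the metastatic and 8.60% in the primary tumor.

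Subunits of the pyruvate dehydrogenase complex itself were within 2-fold. PDHA1, the catalytic alpha subunit that the kinases phosphorylate, stood at 306 FPKM in the metastatic and 167 FPKM in the primary tumor, a log2 ratio of 0.87, the highest of the 30 members. Its partner PDHB stood at 83.1 FPKM in the metastatic and 91.5 FPKM in the primary tumor, and the acetyltransferase DLAT at 23.2 FPKM in the metastatic and 20.7 FPKM in the primary tumor. The 2 subunits of the same heterotetramer thus differed in direction, under each of the 4 scalings. PDK1 per PDHA1 was 0.0217 in the metastatic and 0.128 in the primary tumor. MPC1, a subunit of the mitochondrial pyruvate carrier outside the list, stood at 77.6 FPKM in the metastatic and 25.3 FPKM in the primary tumor, a log2 ratio of 1.58, while its partner MPC2 stood at 102 FPKM in the metastatic and 87.8 FPKM in the primary tumor.

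**Figure D3:**
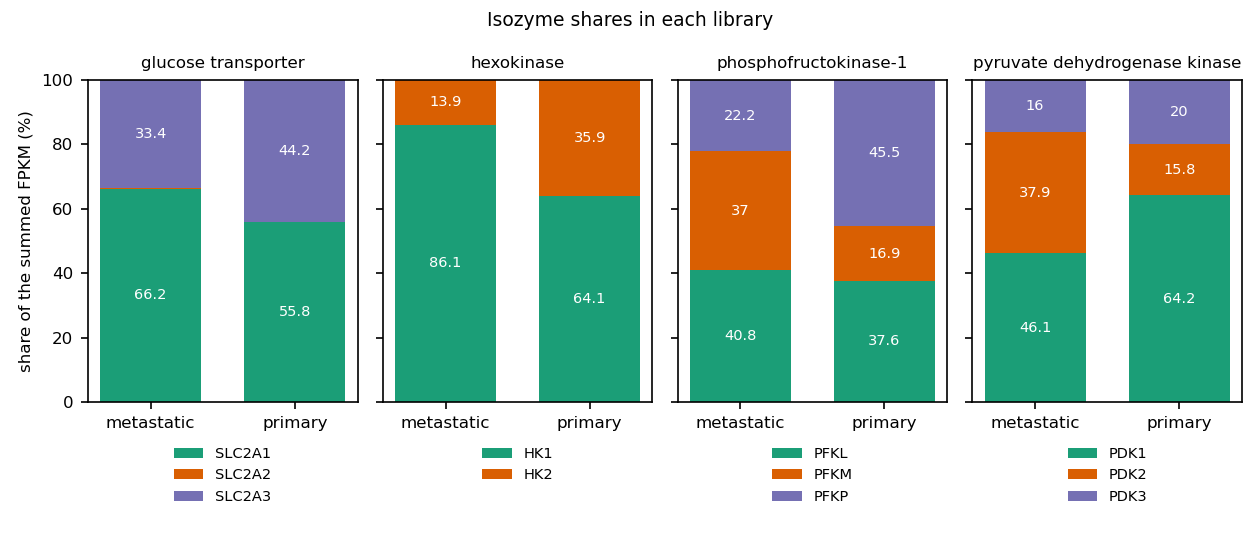
Share of each isozyme in the summed FPKM of the listed members of its family (percent), metastatic left of primary, 1 library each; HKDC1, PDK4 and other SLC2A genes are not counted. HK2 takes 13.9% in the metastatic and 35.9% in the primary tumor, PFKP takes 22.2% in the metastatic and 45.5% in the primary tumor, and PDK1 takes 46.1% in the metastatic and 64.2% in the primary tumor.

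None of the 6 pentose phosphate enzymes on the list reached 2-fold, and 5 of the 6 were above 0. PGD, which yields NADPH in the oxidative branch, stood at 242 FPKM in the metastatic and 143 FPKM in the primary tumor, a log2 ratio of 0.76. PGLS, the lactonase before it, stood at 208 FPKM in the metastatic and 192 FPKM in the primary tumor. In the non-oxidative branch, TALDO1 (transaldolase) stood at 249.98 FPKM in the metastatic and 156 FPKM in the primary tumor, a log2 ratio of 0.68. Transketolase, encoded by TKT, stood at 351 FPKM in the metastatic and 298 FPKM in the primary tumor. RPIA, the ribose 5-phosphate isomerase, was lower in level, at 11.5 FPKM in the metastatic and 8.76 FPKM in the primary tumor, and RPE, the epimerase, stood at 32.7 FPKM in the metastatic and 36.0 FPKM in the primary tumor. The median over the 6 was 0.30, or 0.13 after scaling to the same sum.

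The 6 pentose phosphate members summed to 0.124% of all FPKM in the metastatic and 0.106% in the primary library. The 10 expressed members of upper glycolysis summed to 0.405% in the metastatic and 0.806% in the primary library, with GPI counted by its own row only. Ratios between single genes depended on the pair, since the log2 ratio of HK1 was above those of TKT, PGLS, RPIA and RPE. PGD was 9.54 times the level of PFKP in the metastatic and 1.31 times in the primary tumor. GAPDH was 16.5 times the level of TALDO1 in the metastatic and 41.4 times in the primary tumor. These ratios are taken within a library and do not depend on its scaling. FBP1, the gluconeogenic enzyme that reverses phosphofructokinase-1, was near 0, at 0.0968 FPKM in the metastatic and 0.194 FPKM in the primary tumor, too low to read a difference.

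**Figure D4:**
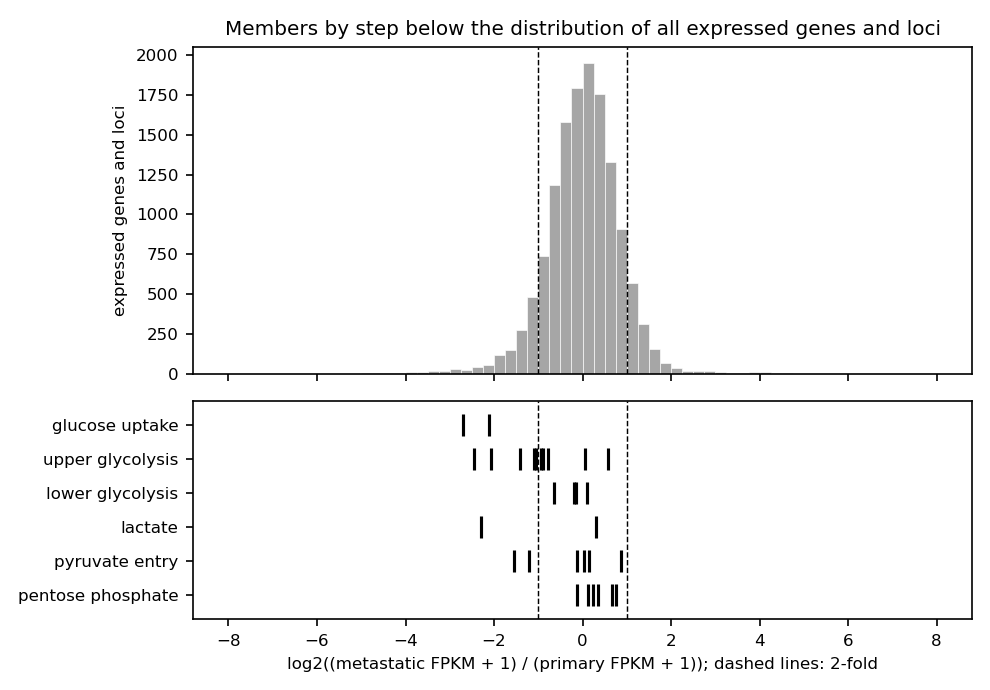
Number of expressed genes and loci per bin of the log2 ratio, metastatic over primary (upper panel), and each expressed member as a tick by step (lower panel); dashed lines mark 2-fold. Ticks of glucose uptake lie left of -2, the upper glycolysis ticks spread from -2.45 to 0.59, and the pentose phosphate ticks lie between -0.13 and 0.76.

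Members were also divided by a list of genes commonly named as HIF-1 targets. A gene left off it may still respond to HIF-1, so the split depends on the list. This list and the hypoxia list below were chosen with earlier results of these data known. The split also runs with the step. All pentose phosphate members are off the list, and PFKM is the only expressed member of upper and lower glycolysis off it. List and step can therefore hardly be told apart. Of 17 expressed members on that list, 9 were at least 2-fold lower, GPI among them by its own row. Over all expressed genes and loci this share was 9.35%. The 17 had a median log2 ratio of -1.05 and a range of -2.70 to 0.59. Of 13 expressed members not on the list, 1, PDK3, was at least 2-fold lower, with a median of 0.16. HK1 and PGAM1 were the 2 listed targets above 0. Hypoxia response genes outside glycolysis were mostly lower too, with a median of -1.62. Of 16, 13 were at least 2-fold lower and 0 higher, against 9.35% and 9.22% of all expressed genes and loci. DDIT4 (-0.39) and ANGPTL4 (-0.23) were lower within 2-fold. EGLN1 went the other way, at 169 FPKM in the metastatic and 99.5 FPKM in the primary tumor, also within 2-fold. CA9, a membrane carbonic anhydrase, stood at 3.83 FPKM in the metastatic and 97.7 FPKM in the primary tumor. Whether oxygen supply differed between the graft sites was not measured.

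Of 68 other genes of these and neighbouring pathways, 45 were expressed, 18 stayed under 1 FPKM and 5 were known from merged loci alone. The 18 include 3 listed at 0 in both libraries, one of them PCK2, which stood on 2 rows like LDHA. Of the 45, 7 were past 2-fold on the higher side and 4 on the lower side, with a median of 0.05. Over all expressed genes and loci 9.22% passed on the higher and 9.35% on the lower side. Without scaling, the lower count was thus near the background and the higher count above it. After scaling to the same sum 5 were higher and 8 lower, and G6PC3 (0.88) and GOT2 (0.90) were then within 2-fold. Both scaled counts lay above the background, which was then 7.24% on the higher and 12.7% on the lower side. Besides HKDC1 and MPC1, the higher ones were SLC2A8, SLC16A7, G6PC3, GOT1 and GOT2. SLC2A8, the intracellular transporter GLUT8, stood at 15.6 FPKM in the metastatic and 6.05 FPKM in the primary tumor. SLC16A7, the MCT2 transporter, stood at 1.41 FPKM in the metastatic and 0.0546 FPKM in the primary tumor. GOT1, the cytosolic transaminase of the malate-aspartate shuttle, stood at 74.3 FPKM in the metastatic and 26.7 FPKM in the primary tumor. The mitochondrial form GOT2 stood at 62.9 FPKM in the metastatic and 29.4 FPKM in the primary tumor. G6PC3, a glucose 6-phosphatase of most tissues, stood at 46.7 FPKM in the metastatic and 22.2 FPKM in the primary tumor.

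Among the 4 lower genes were 2 of glycogen synthesis. GYS1, the muscle-type glycogen synthase, stood at 4.91 FPKM in the metastatic and 16.4 FPKM in the primary tumor, and GBE1, the branching enzyme, at 34.8 FPKM in the metastatic and 79.6 FPKM in the primary tumor. Over the 8 expressed glycogen genes the median log2 ratio was -0.92, with 2 past 2-fold on the lower side, or 5 after scaling to the same sum. The shares of all expressed genes and loci were 9.35% without scaling and 12.7% with it. The glycogen genes added by scaling had log2 ratios between -0.99 and -0.89 without it. H6PD, the hexose 6-phosphate dehydrogenase of the endoplasmic reticulum, stood at 2.51 FPKM in the metastatic and 6.68 FPKM in the primary tumor. PCK1, of gluconeogenesis, stood at 0.481 FPKM in the metastatic and 29.6 FPKM in the primary tumor.

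Markers of several cell types, those of the tumor label included, differed beside these values. The gene symbols are human, while host cells of the grafts are mouse cells. How mouse reads were treated is not given. RNA of human tumor cells and misassigned mouse reads therefore cannot be told apart in these rows, and they do not count host cells. Most of these sums were carried by 1 or a few genes, so they are not levels of a cell type. COL1A2 alone stood at 149 FPKM in the metastatic and 474 FPKM in the primary tumor, most of the fibroblast sum. Fibroblast markers summed to 229 FPKM in the metastatic and 636 FPKM in the primary tumor. Of 9 expressed fibroblast markers, 5 were at least 2-fold lower and 1 higher, against 9.35% and 9.22% of all expressed genes and loci. POSTN was at 0 in the metastatic and LUM at 0 in the primary tumor. Smooth muscle and pericyte markers summed to 123 FPKM in the metastatic and 45.4 FPKM in the primary tumor, with MYH11 at 0 in both libraries. MYL9 carried most of that gap, at 81.5 FPKM in the metastatic and 12.2 FPKM in the primary tumor. TAGLN went the other way, at 14.4 FPKM in the metastatic and 19.8 FPKM in the primary tumor, as did ACTA2 below 1 FPKM. Endothelial markers summed to 6.76 FPKM in the metastatic and 28.3 FPKM in the primary tumor, with KDR at 0 in both. EGFL7 carried most of that gap, at 1.58 FPKM in the metastatic and 19.1 FPKM in the primary tumor. VWF and TIE1, both under 1 FPKM, went the other way. Leukocyte markers summed to 14.2 FPKM in the metastatic and 6.30 FPKM in the primary tumor, with AIF1 at 0 in both. Without LYZ, left out after its value was seen, the sums were 2.22 FPKM in the metastatic and 3.57 FPKM in the primary tumor, the opposite direction. Erythroid markers summed to 99.9 FPKM in the metastatic and 36.0 FPKM in the primary tumor, and skeletal muscle markers to 1.30 FPKM in the metastatic and 1.43 FPKM in the primary tumor. HBB made up most of the erythroid sum, at 96.0 FPKM in the metastatic and 33.5 FPKM in the primary tumor. Hepatocyte markers summed to 725 FPKM in the metastatic and 281 FPKM in the primary tumor, and epithelial markers to 2469 FPKM in the metastatic and 1295 FPKM in the primary tumor. FGB carried most of the hepatocyte gap, at 499 FPKM in the metastatic and 111 FPKM in the primary tumor. KRT8 and KRT18 made up most of the epithelial sum. The part of all these markers in the glycolysis values was not tested. Markers of the neuroendocrine label with values of their own summed to 3.15 FPKM in the metastatic and 9.43 FPKM in the primary tumor. SYP stood at 1.96 FPKM in the metastatic and 1.63 FPKM in the primary tumor, INSM1 at 0.271 FPKM in the metastatic and 3.54 FPKM in the primary tumor, and SCG2 at 0.340 FPKM in the metastatic and 2.62 FPKM in the primary tumor. CHGB stood at 0.336 FPKM in the metastatic and 1.64 FPKM in the primary tumor. CHGA was listed at 0 in both, again on 2 rows, which is no evidence of its absence, and the merged ENO2 locus given above is not in the sum.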

How the data were processed

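The authors deposited FPKM for both libraries in a single table of 62573 rows, per the file headers. Cufflinks 2.2.1, STAR 2.7.6a, bcl2fastq 2.18.0.12 and the human build GRCh38 appear in the submitters' processing notes, which give neither their roles nor their order. How mouse reads were treated, which annotation served and what was filtered is not given in the sources used. Human gene positions and sequences were not used here. Among 6509 low rows, above 0 and below 1 FPKM in each column, the ratio was one of whole numbers up to 5 in 41.9% (tolerance 0.01%), against 0.676% when 1 library was multiplied by 1.05. One fragment may thus be worth the same FPKM in both columns, so unscaled values can carry a difference in depth.

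Repeated rows of 1 label were added up. Several symbols share 1734 rows. A gene took the value of such a row if only clones, short RNAs or antisense RNAs shared it, and any other was kept as a locus. Expressed means at least 1 FPKM in at least 1 library. No test could be run on 1 library per group, so a 2-fold difference of FPKM + 1 served as threshold. All members are named; other pathway genes are named where they differed by at least 2-fold or complete an isozyme family, complex or branch of the members. The latter, and the use of pseudogene and repeated rows, were chosen after their values were seen. Some other pathway genes are counted but not reported here by name. Members and lists were chosen with earlier results of these data known. The fold calculation was run on simulated shifts added to well expressed genes, without merged loci. That run cannot speak to merged or repeated rows, low genes or variation between tumors. Alternatives were pseudocounts of 0.5 and 0.1 FPKM, filters of 0 and 5 FPKM, a 4-fold threshold, scaling (by the 75th percentile, the median ratio or to 1000000), the highest of repeated rows, and all merged loci. Python 3.11.15, numpy 2.4.6 and pandas 2.3.3 were used.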

Additional observations from a re-analysis of the deposited data

How the results depend on the processing

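With a 4-fold threshold, 5 members were lower and 0 higher. Under the other alternatives the count of lower members lay between 9 and 12 and that of higher members was 0. The median over all members ran from -0.35 to -0.13. Glucose uptake ran from -2.59 to -2.12, upper glycolysis from -1.17 to -0.93, lower glycolysis from -0.35 to -0.16 and pyruvate entry from -0.21 to -0.05, all below 0 under the alternatives run. The lactate median ran from -1.17 to -0.99 over its 2 expressed genes, and was 0.30 over 3 with the merged LDHB locus and 0 over 4 without a filter. Of single members, GPI came within 2-fold (-0.46) with merged loci added, PFKL passed it under 2 scalings and TPI1 (-1.06) under 1. Leaving out GPI was chosen after seeing the data. No paired analysis was possible because each group held 1 library. With unknown depth, differences of members near 1 FPKM cannot be given an error.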
